A study of Mus musculus with 6 samples.

Results

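Among the cells of the Yumm5.2 mouse melanoma line recovered from tumours, 448 of 22390 carried the most RNA of Tnn, Srpx2, Dpt, Stra6, Masp1, Mgp and Aqp1, and they are called members below. Tumour cells were the barcodes, of 43929 in all, with at least 3000 UMIs (unique molecular identifiers, each counted as 1 RNA molecule), at most 20% mitochondrial UMIs, at most 1 UMI of Tyrobp, none of Ptprc, Pecam1 or Cdh5, and at least 5 UMIs of Spp1, Grem1 and Cdkn2a together. Members were the top 2% of these, over all libraries, by the summed UMIs of the 7 genes divided by the UMIs of the cell. The 21942 remaining tumour cells are the comparison. Members were thus chosen by the measured UMIs of those 7 genes, so their levels are given below as a description, and they were left out of every test between members and other cells.

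All tumours were grown under the skin of C57BL/6 mice from 350000 implanted cells, and every cell line carried the shCdkn2a hairpin, including the control. The control line also carried a control hairpin, and the knockdown lines carried hairpin 1 or hairpin 2 against Slc39a9, a zinc transporter gene. Mice received 200 µg anti-PD1, an antibody against the T cell checkpoint receptor PD-1, or an IgG antibody, dosed 3 times weekly until the tumour measured 0.5 cm3. There was 1 library for each line and antibody, 6 in all, so the knockdown replicates are different hairpins, the control has no second line, and p-values measure the spread between libraries. The number of tumours in a library and the age of the mice are not given in the sources used here.

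The libraries held 58859821 to 83204249 UMIs. Slc39a9 in other tumour cells was at 22.3, 20.7, 7.7, 8.38, 12 and 10.8 CPM (UMIs scaled to the summed UMIs of the cells) in the 6 libraries. This and every later list of 6 values runs through the control, hairpin 1 and hairpin 2 lines in turn, with the IgG library of each line before its anti-PD1 library. In members it was at 25, 22.7, 15.2, 11, 7.68 and 11.2 CPM, so both control libraries lay above all 4 knockdown libraries in both kinds of cell. Barcode names were shared widely: 73.1% of 13064 distinct names occurred in at least 2 libraries, and the rank correlation of total UMIs between libraries over shared names was 0.949 to 0.983. Of shared names with at least 3000 UMIs in both libraries, 1727 had over 1 Tyrobp UMI in both, against 1173 from the product of the shares, summed over pairs of libraries. Of 437 distinct member names, 11 named a member in more than 1 library, and whether any of these are the same cells was not tested.

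Several of the 7 genes encode secreted or matrix proteins. Mgp encodes matrix Gla protein, a vitamin K dependent inhibitor of calcification in cartilage and vessel walls. Tnn encodes tenascin-N (tenascin-W), a matrix glycoprotein of bone and of tumour stroma, and Dpt encodes dermatopontin, a small matrix protein of the dermis. Aqp1 encodes a water channel, Stra6 a receptor for retinol bound to its plasma carrier, Masp1 a serine protease of the lectin pathway of complement, and Srpx2 a secreted sushi repeat protein.

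Mgp, on mm10 at chr6:136872435-136875823, minus strand, gave 61.2% of the members' UMIs from the 7 genes. Its level in members was 7318, 4428, 5088, 4331, 5046 and 4753 CPM, against 122, 125, 122, 98.4, 124 and 89.5 CPM in other tumour cells. Tnn, at chr1:160085029-160153580, minus strand, gave 17.7%, with 1158, 1473, 521, 1056, 1926 and 2319.5 CPM in members and 137, 118, 98.3, 88.3, 207 and 176 CPM in the others. Hairpin 1 IgG members had the least Tnn and hairpin 2 anti-PD1 members the most. Aqp1, at chr6:55336432-55348555, plus strand, gave 17.0%, with 1022, 1528, 2124, 2048, 1240.0 and 1300.2 CPM in members and 391, 435, 325, 298, 339 and 403 CPM in the others. The other 4 genes were far lower: Dpt was at 87 to 164 CPM in members, Masp1 at 68.1 to 165 CPM, Stra6 at 40.7 to 135 CPM and Srpx2 at 10.4 to 72.1 CPM. Stra6 was the gene whose ranges overlapped between members (40.7 to 135 CPM) and others (12.6 to 59.1 CPM).

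**Figure D1:**
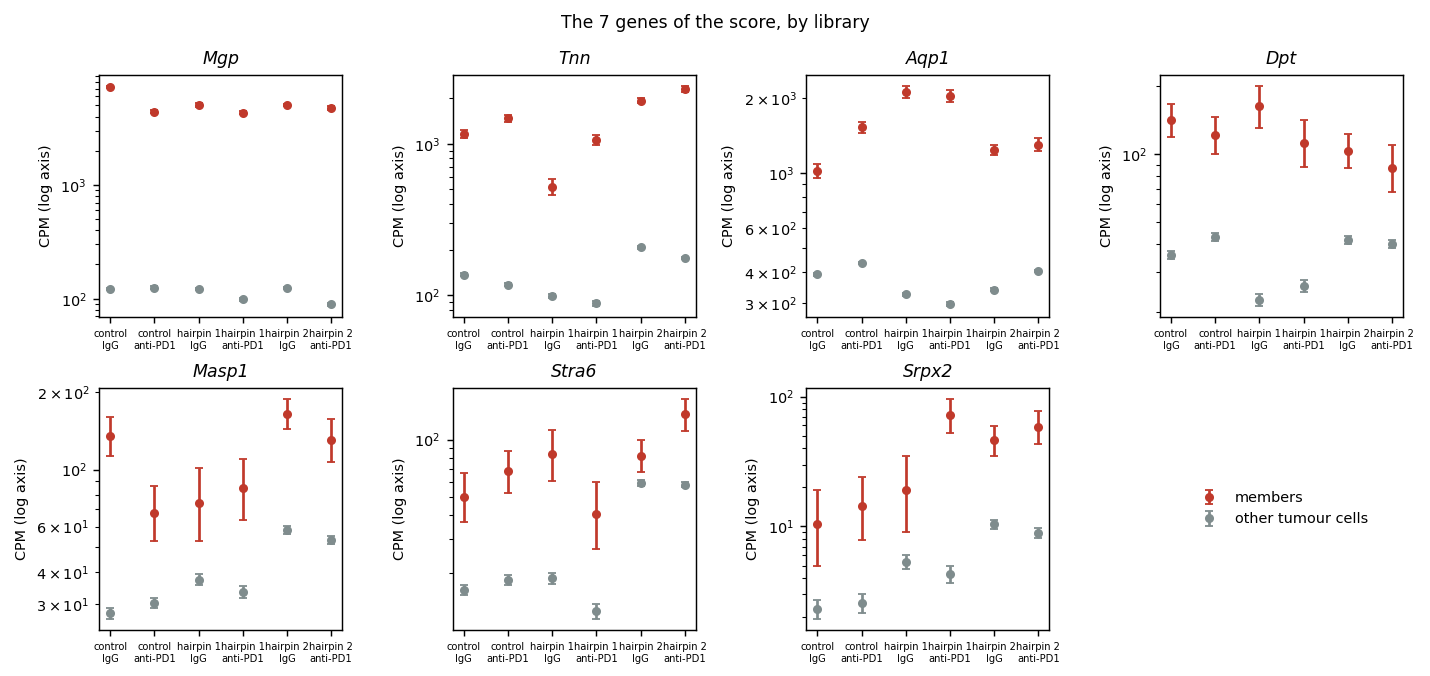
CPM of each of the 7 genes (log axis) in members and in other tumour cells of the 6 libraries, with exact Poisson 95% intervals that cover counting error only. Mgp shows the widest gap, with members at 4331 to 7318 CPM and other cells at 89.5 to 125 CPM.

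Promoter sequence, 250 bases before to 50 after a RefSeq start site (GRCm38.p6), was held for 5 of the 7 genes. The Aqp1 window ends before the gene start given above, which comes from GENCODE M21. Windows of Tnn, Aqp1, Dpt and Srpx2 are shown as examples, and those of Stra6 are not shown. Dpt gave 1.39% and Srpx2 0.42% of the members' UMIs from the 7 genes, while Mgp, which gave 61.2%, had no entry. Capitals mark any of 5 motifs, each searched on both strands in all 32851 promoters of this length. The TATA box was searched as TATAAA and occurred in 13.6% of them. The AP-1 motif was searched as TGACTCA and occurred in 5.2%. The RUNX motif was searched as TGTGGT and occurred in 16.8%. The TEAD motif was searched as GGAATG and occurred in 14.7%. The CCAAT box was searched by the letters of its name and occurred in 37.4%. None of these motifs overlaps another in the windows shown. Tnn held the TEAD and CCAAT letters, Srpx2 the AP-1 letters, Dpt the TATA and RUNX letters and Aqp1 the RUNX letters, so no motif was found in all 4 windows. The TATA letters of Dpt (offset 12) and the RUNX letters of Aqp1 (offset 37) lie past the start site. A match of letters does not show that a motif is used.
Tnn, chr1:160153526-160153825, minus strand: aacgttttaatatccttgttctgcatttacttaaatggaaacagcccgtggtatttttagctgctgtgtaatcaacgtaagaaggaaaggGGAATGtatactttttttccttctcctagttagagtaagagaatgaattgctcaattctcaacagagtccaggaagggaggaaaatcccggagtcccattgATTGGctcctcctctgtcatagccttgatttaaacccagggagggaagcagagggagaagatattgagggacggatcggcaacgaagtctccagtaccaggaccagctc
Aqp1, chr6:55336049-55336348, plus strand: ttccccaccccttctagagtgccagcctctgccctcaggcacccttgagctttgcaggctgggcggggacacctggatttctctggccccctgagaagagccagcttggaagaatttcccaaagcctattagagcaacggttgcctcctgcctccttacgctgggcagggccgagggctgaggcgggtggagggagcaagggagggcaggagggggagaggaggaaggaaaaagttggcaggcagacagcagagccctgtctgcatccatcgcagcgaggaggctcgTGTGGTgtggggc
Dpt, chr1:164796413-164796712, plus strand: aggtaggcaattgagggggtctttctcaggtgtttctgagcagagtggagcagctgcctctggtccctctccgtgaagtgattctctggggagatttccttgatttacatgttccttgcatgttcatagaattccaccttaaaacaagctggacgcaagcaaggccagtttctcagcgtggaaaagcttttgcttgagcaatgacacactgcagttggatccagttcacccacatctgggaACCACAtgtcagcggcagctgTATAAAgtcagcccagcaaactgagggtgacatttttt
Srpx2, chrX:133908175-133908474, plus strand: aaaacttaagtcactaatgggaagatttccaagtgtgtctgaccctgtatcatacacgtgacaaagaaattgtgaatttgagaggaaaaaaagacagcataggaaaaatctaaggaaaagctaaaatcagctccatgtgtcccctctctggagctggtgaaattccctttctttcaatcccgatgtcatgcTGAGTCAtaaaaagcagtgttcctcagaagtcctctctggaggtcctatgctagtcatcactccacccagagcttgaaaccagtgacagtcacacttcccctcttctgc

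In most members 1 of the 7 genes gave the larger part of the score, and 172 members held UMIs of both Mgp and Tnn. Mgp was the leading gene, the one with the most UMIs of the 7, in 293 members, Tnn in 96, Aqp1 in 58 and Masp1 in 1. A single gene gave over 90% of the score in 117 members (26.1%), and the leading gene gave a median of 77.5%. UMIs of 1 of the genes only were held by 22 members, of 2 genes by 101, and of at least 3 by 325. In members led by Tnn, Tnn was at 4729 CPM and Mgp at 268 CPM, while in members led by Mgp, Tnn was at 370.0 CPM and Mgp at 7702 CPM. At 3000 UMIs drawn from each cell, Mgp was found in 54.3% of the 221 members with Tnn and in 96.0% of the 227 without it, while among other tumour cells it was found in 15.5% of those with Tnn and 12.7% of those without. These splits use the chosen values, and the rule itself makes a member low in Mgp high in another gene, so they carry no test.

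**Figure D2:**
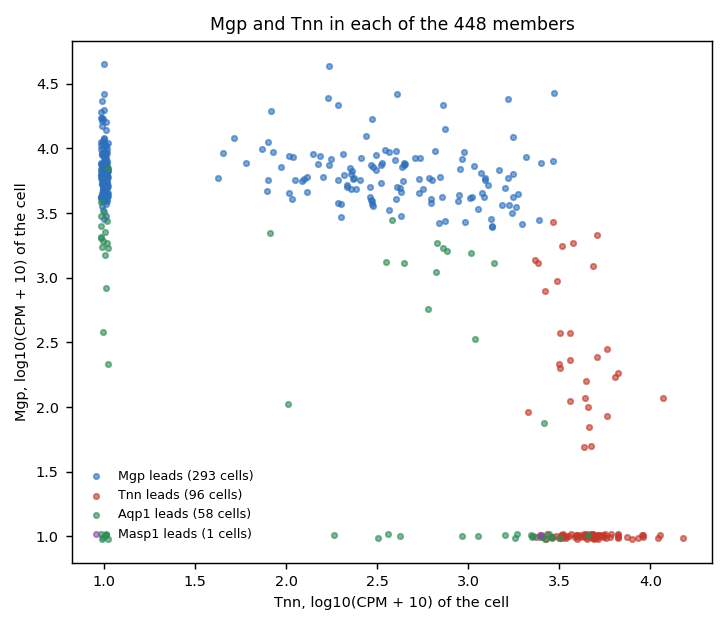
Each point is 1 of the 448 members, placed by Tnn (x axis) and Mgp (y axis) as log10(CPM + 10) of the cell and coloured by its leading gene, with a small random shift to separate points. Of the 293 cells led by Mgp 130 held Tnn, and of the 96 led by Tnn 68 held no Mgp and lie along the lower edge.

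Ranking the tumour cells without Mgp changed most of the membership. The top 2% by the other 6 genes shared 172 cells with the members (38.4%). Those cells still had more Mgp than the remaining tumour cells in 5 of 6 libraries, at a median of 473 CPM against 184 CPM. In control anti-PD1 they had less, 74.9 against 198 CPM. Leaving out each of the other genes in turn kept 75.9% (Tnn) to 98.9% (Srpx2) of the members, and the gene left out was higher in the chosen cells in 6 of 6 libraries each time. Some gaps were near 0, as for Srpx2 in hairpin 1 IgG (5.78 against 5.46 CPM) and Stra6 in hairpin 1 anti-PD1 (13.8 against 13.0 CPM). The 7 genes were put together with results of these data known, so these values are a description and no test. Across the ranking, Mgp rose from 1149 CPM in cells between the top 2% and 5% to 10622 CPM in the top 0.5%, whereas Tnn went from 1190.2 CPM to 1352 CPM. At the threshold, the last member had 5159 CPM of the 7 genes summed and the first cell outside had 5152 CPM.

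Pooled over libraries, members were close to other tumour cells in the sex-linked genes that differ between the line and host immune cells. Their summed Y-linked RNA was at 2.50 CPM and Xist, the RNA of the inactive X chromosome, at 66.7 CPM. Other tumour cells were at 2.30 and 72.3 CPM. A set of 3021 Tyrobp cells was at 281 and 11.7 CPM. That set does not hold all cells with more than 1 Tyrobp UMI. Single libraries differed: hairpin 1 IgG members had 7.61 CPM of Y-linked RNA and 58.9 CPM of Xist, against 1.51 and 102 CPM in others. Xist was higher in members in 1 of 6 libraries and Y-linked RNA in 3 of 6. Scrublet marked 0 members as doublets and 72 of the others, and 0 of 448 allows a share of up to 0.67%, for counting error only. The list of 20 melanocyte and neural crest genes summed to 386 to 446 CPM in members and 329 to 389.8 CPM in others, higher in members in 6 of 6 libraries. Of its 10 genes tested 2 rose and 1 fell, where 5.68% of all genes tested rose and 6.77% fell. In members 9 listed genes, among them the melanocyte genes Sox10, Tyrp1, Dct and Mlana, had 0 UMIs. Members' sums held 525917 to 1302449 UMIs a library and those of the others 40681297 to 60973858, so 0 UMIs does not show a loss. The members' median depth was lower, 9094 UMIs a cell against 11082 in the others (11081.5). At 3000 UMIs drawn from each cell, members held a median of 1675 genes (1674.5) and others 1700.

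Members differed from other tumour cells in collagen, G2/M and hypoxia genes, among others. Of 14395 genes tested with edgeR's quasi-likelihood test on sums per library, with the library as a block, 1793 (12.5%) passed an adjusted p of 0.05: 818 higher in members (5.68%) and 975 lower (6.77%). The median log2 difference over all genes was -0.04. DESeq2 split its 1755 calls the other way, 985 higher and 770 lower, leaving out control IgG left 1093 calls, and the fit with no block made 1060. With each member set against 1 other cell of like depth, 801 of 9738 genes passed, 474 higher and 327 lower. A gene that goes along with the 7 in single cells would appear in such a comparison, so it describes the members and is not independent of how they were picked.

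Dmp1, which encodes an acidic phosphoprotein of bone and dentin matrix, had the largest increase by the rule for named genes. Its level was 116, 282, 869, 1015, 739 and 80.8 CPM in members and 15.3, 20.4, 39.8, 57, 9.15 and 10.1 CPM in other cells, a log2 difference of 4.20 ± 0.31 (SE; adjusted p = 9.84e-08, edgeR). No library's others reached the lowest members, but few cells carried it: 90 members had a UMI, 1 cell held 27.7% of the UMIs and 5 cells held 55.8%. Outside hairpin 1, Dmp1 was at 541 CPM in members led by Mgp and 6.07 CPM in those led by Tnn. When members were ranked without Mgp, the Dmp1 difference was 0.15 and was not called (adjusted p = 0.886, edgeR).

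Aspn, which encodes the small proteoglycan asporin, was spread over more cells. It was at 402, 351, 627, 606, 212 and 323 CPM in members and 78, 84.8, 144, 135, 111 and 105 CPM in others (1.92 ± 0.14, adjusted p = 9.84e-08, edgeR), and the ranges did not overlap. A UMI was found in 64.7% of members and 30.2% of others, at unequal depth. Itga8, an integrin chain, was at 51.1 to 150.4 CPM in members against 12.2 to 31.8 CPM (log2 difference 1.97 ± 0.20). It was found in 40.6% of members, and the ranges again did not overlap. Both Ackr4 and Ackr2, receptors that take up chemokines, were among the named genes: Ackr4 was at 27.6 to 87.5 CPM against 3.22 to 14.3 CPM (2.71 ± 0.35) and Ackr2 at 13.3 to 51 CPM against 1.3 to 14.2 CPM (2.08 ± 0.31). Fgf2, a fibroblast growth factor, was at 15.2 to 27.1 CPM against 4.72 to 9.89 CPM (1.59 ± 0.21), and 0.75 without a call when members were ranked without Mgp (adjusted p = 0.0669, edgeR).

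Other genes among the 20 with the largest increases were Sulf1, an enzyme that trims heparan sulfate (2.74), Fbn2, a microfibril protein (2.30), Enpp1, which makes pyrophosphate (1.91), and Islr (2.70), Tmem204 (2.48), Bdh2 (1.78), Fam198b (1.78), Ccdc3 (1.77), Ncald (1.74), Pamr1 (1.72), Rasl11b (1.65) and Olfml3 (1.64), each as a log2 difference. All 20 were higher in 6 of 6 libraries, as the naming rule required, and 706 of all genes tested (4.9%) had that direction in every library. Hairpin 1 members were the highest for Islr, at 3.13, 7.22, 72.3, 48.6, 6.91 and 3.73 CPM, and for Sulf1, at 4.17, 10.3, 72.3, 79.9, 3.84 and 11.2 CPM. Without both hairpin 1 libraries the difference was 1.82 for Islr and 2.11 for Sulf1, and the calls were lost for Tmem204 (1.10, adjusted p = 0.15, edgeR) and Ccdc3 (0.90, adjusted p = 0.0625). Ranked without Mgp, the calls were lost for Islr (1.41), Fbn2 (0.67) and Enpp1 (0.63), and with depth-matched cells or with no library block that of Pamr1 was lost (1.44 and 1.71).

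Collagen genes were mostly higher in members. Of 26 collagens and collagen-processing genes tested, 18 rose and 1 fell, with a median log2 difference of 0.93 against -0.04 over all genes. Col1a1, a chain of type I collagen, was at 243, 195, 1487, 1011, 131 and 194 CPM in members and 62.7, 56.3, 115, 135, 72 and 73.1 CPM in others (2.17 ± 0.25, adjusted p = 1.84e-05, edgeR). Hairpin 1 members were far above the rest, yet each library's members exceeded its own other cells. Col11a1 (1.69), Col6a2 (1.52) and Col1a2 (0.96) rose too. Plod2, which hydroxylates collagen lysines and is a known target of hypoxia, fell by 0.63. Without both hairpin 1 libraries, 18 rose and 1 fell, with a median of 0.58, where 4.48% of all genes rose. With depth-matched cells 12 of 24 rose.

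Of 28 small proteoglycans and microfibril genes, 19 rose and 1 fell (median 0.76). Ltbp3, which binds latent TGF-beta, rose by a log2 difference of 1.01 ± 0.11, while Pcolce2 changed by -1.74 ± 0.17. Without hairpin 1, 10 of 27 rose and 1 fell (median 0.41), and with depth-matched cells 10 of 26 did. Of 22 tenascins and matricellular genes, 15 rose and 1 fell (median 0.69); without hairpin 1, 13 of 21 rose. Aebp1 (0.87), Wisp1 (0.85) and Thbs3 (0.83) rose, while Tnc, the tenascin C gene, fell by 0.60. Among complement genes, 8 of 15 rose, among them Clu (1.16), and 1 fell. The count was 5 of 14 higher without hairpin 1 and 4 of 15 when ranked without Mgp. C3, the central complement component, was the gene that fell, by 1.24, but control anti-PD1 members were not below their other cells (49.5 against 45.8 CPM).

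Of 10 genes that control calcification, the role known for Mgp, 5 rose and 1 fell (median 0.49), with the same counts without hairpin 1 and 3 of 8 higher with depth-matched cells. Enpp1 was at 9.39, 12.4, 47.5, 21.9, 22.3 and 22.4 CPM in members and 5.58, 4.14, 5.25, 4.77, 8.14 and 6.06 CPM in others (1.91 ± 0.28, adjusted p = 0.000156, edgeR). Ank, a transporter linked to pyrophosphate release, rose by 0.90 ± 0.09, and Vkorc1, which regenerates vitamin K, by 0.77 ± 0.15. Tnfrsf11b (2.33) and Tnfsf11 (1.69), decoy receptor and ligand of osteoclast formation, completed the 5.

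Signalling lists are read against the 5.68% of all genes that rose and the 6.77% that fell. Of 24 Wnt pathway genes, 7 rose and 0 fell, among them Dkk3 (1.18), Wnt10a (0.93), Wnt5b (1.02) and Fzd1 (1.06). Of 24 BMP and TGF-beta genes, 8 rose and 1 fell: the ligands Tgfb2 (1.21) and Tgfb3 (0.92), the antagonist Chrdl1 (1.71) and the target Id3 (0.95) were among those higher, and Fst, the activin antagonist, fell by 0.96. Without hairpin 1 the BMP and TGF-beta count was 5 higher and 3 lower. Retinoid genes, the setting of Stra6, were mixed, with 4 of 18 higher and 2 lower, the latter near the share of all genes. Crabp1, a retinoic acid binding protein, rose by 0.52 and Cyp26b1, which degrades retinoic acid, by 0.80. Among plasminogen genes, Plat rose (0.69), while Plau and the plasmin receptor gene Anxa2 fell by 0.89 and 0.94. Of 4 other aquaporins tested, Aqp3 was lower.

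Proliferation genes were lower in members. All 24 G2/M genes fell (median -1.40), as did 14 of 24 S phase genes (median -0.77), where 6.77% of all genes fell. Bub1, a spindle checkpoint kinase, was at 2.09, 5.16, 0, 4.7, 6.91 and 1.24 CPM in members and 17.4, 15, 24.6, 32.9, 23 and 18.2 CPM in others (-2.46 ± 0.31, adjusted p = 3.7e-05, edgeR). Rrm2, which makes deoxynucleotides, fell by 2.03 and Top2a by 1.56. With depth-matched cells 19 of 24 G2/M genes fell, and without hairpin 1, 22 did. The S phase count was lower under these choices, with 6 of 23 falling with depth-matched cells, 8 of 24 without hairpin 1 and 8 of 24 when ranked without Mgp.

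Hypoxia, interferon and neuronal genes were lower too. Of 19 hypoxia and glycolysis genes 11 fell and 0 rose (median -0.73), among them Slc2a1, a glucose transporter, and Pgk1, which changed by -1.13 ± 0.16 and -0.78 ± 0.08. Of 16 interferon response genes 9 fell (median -1.59). Gbp2 was at 1.24 to 17.1 CPM in members against 27.8 to 57.6 CPM (-2.67 ± 0.28), and lost its call with the top 5% (-0.81) and when ranked without Mgp (-0.71). When members were ranked without Mgp, 1 of 17 interferon genes fell, and with depth-matched cells 1 of 9 rose and 1 fell, while 14 of 16 fell without hairpin 1, so this count depended on those choices. Saa3, an acute phase gene, was at 5.22, 3.09, 1.9, 0, 0.768 and 0 CPM in members and 155, 136, 52.3, 3.74, 150.2 and 178 CPM in others (-5.99 ± 0.27, adjusted p = 1.14e-10, edgeR).

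All 7 tested genes of the neurofilament list fell, with median -3.53. Stmn2, a microtubule regulator of neurons, had 2 UMIs over all members, and was 76-fold lower than in others (exact 95% interval 21 to 628, counting error only). Nefl, the light neurofilament chain, was at 0 to 8.7 CPM against 20.9 to 119 CPM (-5.16 ± 0.32). Nefm (-3.71), the proteases Tmprss11d (-3.39) and Tmprss11b (-3.25), Lcn2 (-2.50), Dynap (-2.46), Itgb7 (-2.43) and Nppb (-2.09) completed the 12 named decreases. Lcn2 lost its call with depth-matched cells (-1.95) and with no library block (-2.22), as Nppb did with no library block (-2.03).

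**Figure D3:**
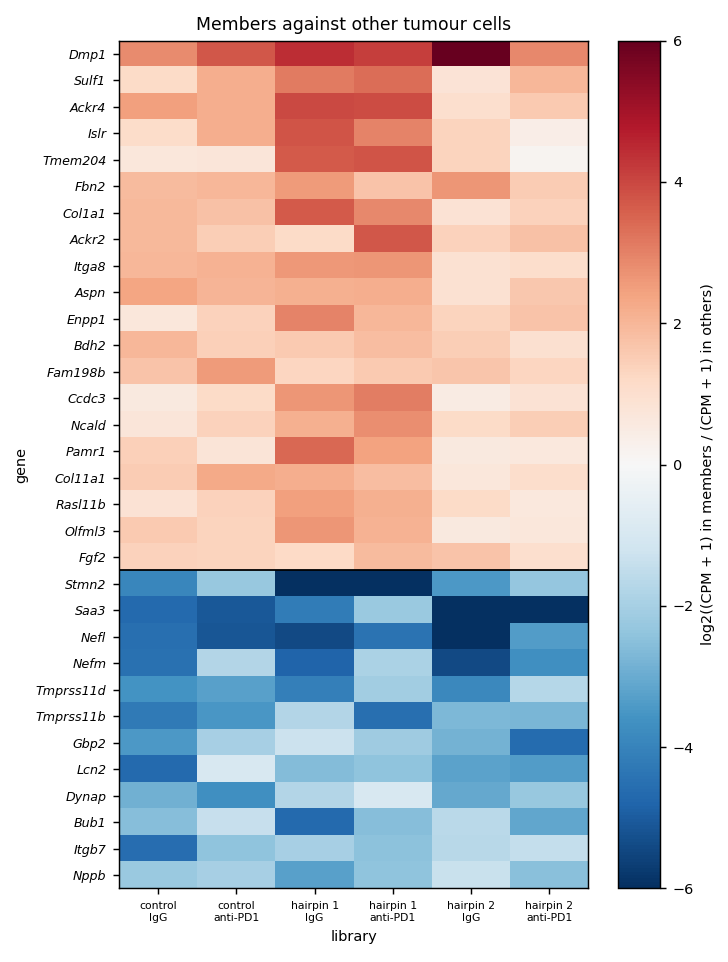
Log2 ratio of CPM + 1 in members to CPM + 1 in other tumour cells, by library (columns), for the 20 increases (above the line) and 12 decreases (below it) named by rule. Each row keeps 1 sign, as the rule required, while Islr, Sulf1 and Col1a1 are strongest in the hairpin 1 columns.

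Mesenchymal genes rose in 10 of 16 cases and fell in 0 (median 0.71), where 5.68% of all genes rose. Among them were Cdh11, a mesenchymal cadherin (1.44), Pdgfrb (1.10) and Osr2 (1.32). Without both hairpin 1 libraries 8 of 16 rose. The summed level of the list moved little, with log2 ratios of 0.11, 0.22, 0.07, 0.28, 0.12 and -0.01. Markers of other cell types were read beside these lists. The rule had already limited Tyrobp, Ptprc, Pecam1 and Cdh5 in both kinds of cell. Low levels of immune and endothelial genes were thus largely set beforehand and are no test of what the members are. As the members' summed UMIs were far fewer, 0 UMIs in them does not show a lower level. Host fibroblast genes, which overlap the matrix lists, had 6 of 16 higher and 2 lower, a median of 0.08 and a summed level of 1188 to 1629.5 CPM in members against 961 to 1440.2 CPM in others. Clec3b and Tcf21 of that list had 0 UMIs in members. Pi16, a fibroblast marker, changed by -1.04 ± 0.33. These genes do not stand for the list, in which 6 rose and 2 fell, where 5.68% of all genes rose. The log2 ratio of its sums was 0.08, 0.15, 0.62, 0.61, -0.18 and -0.15. Without both hairpin 1 libraries 2 rose and 3 fell (median -0.11). Macrophage genes had 0 of 13 called, at 70.6 to 164 CPM against 88.4 to 129 CPM, and 12 of 13 T and NK genes were at 0. Of 8 pericyte and smooth muscle genes Mcam was higher, and Rgs5, Myh11, Des, Abcc9 and Higd1b had 0 UMIs. Of 10 endothelial genes Ecscr was higher, and Kdr and Cldn5 had 0 UMIs. Removing the 12 members with a Y-linked UMI left 1770 genes called, 1679 of them among the 1793.

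**Figure D4:**
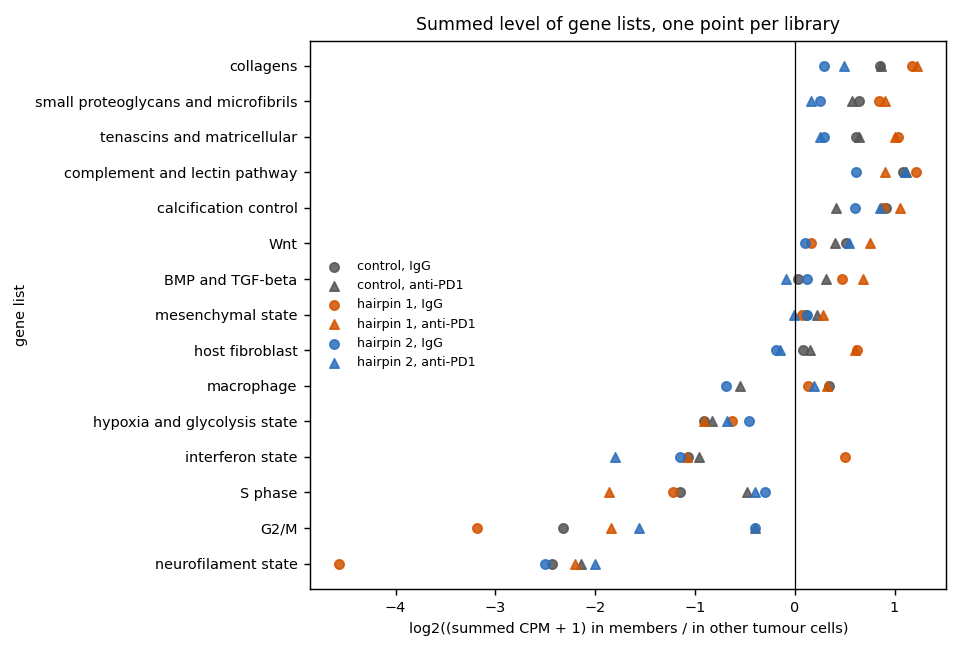
Log2 ratio of the summed CPM of each gene list (plus 1) in members to that in other tumour cells, 1 point a library, coloured by line and shaped by antibody. G2/M, S phase, hypoxia and neurofilament sums lie below 0 in 6 of 6 libraries, and collagen sums lie above 0 in 6 of 6.

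The hairpin 1 libraries stood apart, and the comparison that follows was added after this was seen. The difference between members and other cells was itself compared between hairpin 1 and the other lines, with an antibody term. Of 14395 genes 510 passed (3.54%), with 313 more positive in hairpin 1 (2.17%) and 197 more negative (1.37%), against 175 by DESeq2. Leaving out a hairpin 1 library gave 173 genes (IgG) or 202 (anti-PD1), and leaving out hairpin 2 IgG gave 326. Since hairpin 1 is a single line, its 2 libraries cannot tell the hairpin from other differences of that line. The p-values treat libraries of a line as independent, although these deviated together, so they do not carry the spread between lines. As the comparison was picked from these same data, its counts and p-values describe hairpin 1 and are no independent test. Sparcl1, a SPARC relative of the matrix, was at 6.26, 3.09, 685, 783, 2.3 and 3.73 CPM in members and 3.62, 4.29, 25, 40.9, 3.57 and 7.03 CPM in others, an additional log2 difference of 4.81 ± 0.30 (adjusted p = 1.3e-54, edgeR). Postn, which encodes periostin, was at 81.4, 30.9, 840.4, 1341, 17.7 and 39.8 CPM, and Mmp2, a gelatinase, at 529, 568, 2228, 2307, 355 and 358 CPM in members. For these 3 genes the members of both hairpin 1 libraries lay above those of the other 4. Other cells of hairpin 1 were also the highest for Sparcl1, and levels in other cells are not given for Postn and Mmp2. Member levels alone do not separate a trait of members from a trait of the line.

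Within the lists, 11 of 26 collagens, 11 of 28 small proteoglycan and microfibril genes and 8 of 24 BMP and TGF-beta genes had a more positive difference in hairpin 1, and 7 of 16 host fibroblast genes did. Of all genes tested 2.17% did. In these lists 1 gene, a collagen, had a more negative difference. Eln, the elastin gene, was at 0, 0, 262, 40.7, 0.768 and 1.24 CPM in members, carried by 14 cells, with 34.3% of the UMIs in 1 cell. Mest and H19, imprinted genes, were at 0, 9.28, 188, 334, 0 and 0 and 1.04, 0, 217, 227, 0 and 0 CPM. Of 24 G2/M genes 12 had a more negative difference in hairpin 1, where 1.37% of all genes did. Mki67 was at 8.35, 76.3, 0, 17.2, 79.1 and 8.7 CPM in members and 68.4, 66.2, 107, 136, 104 and 79.3 CPM in others, so hairpin 1 had the highest other cells, while its anti-PD1 members were above those of control IgG and hairpin 2 anti-PD1. Members led by Tnn were few in this line, 3 of 42 and 8 of 66.

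Anti-PD1 and Slc39a9 knockdown were compared next within members. With edgeR 0 of 9164 genes (0%) differed between anti-PD1 and IgG members, with 129 at an unadjusted p under 0.05 and 0 by DESeq2; with the line as a block, 0 passed and 341 did so unadjusted. Between knockdown and control members 0 of 9164 (0%) passed, with 323 unadjusted and 2 by DESeq2. The genes that chose the members were left out of tests between members and other cells, but not of these tests within members. The choice of members limits their levels there, so the counts carry no test of those genes. A p that misses the threshold does not show that the groups were alike.

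Whether the difference between members and other cells itself changed was tested with an interaction term. For anti-PD1, 1 of 14395 genes passed (0.00695%). That gene was Stc1, which encodes the secreted hormone stanniocalcin-1. It was at 819, 1087, 441, 874, 955 and 1985 CPM in members and 445, 422, 324, 192, 732 and 547 CPM in others, so the gap was larger under anti-PD1 in each line, by a log2 difference of 1.24 ± 0.20 (adjusted p = 0.000896, edgeR). DESeq2 called 0 genes, and leaving out hairpin 1 IgG also gave 0. Leaving out each other library gave 10 (hairpin 1 anti-PD1), 15 (control anti-PD1), 16 (control IgG, and also hairpin 2 anti-PD1) and 60 (hairpin 2 IgG). Stc1 itself lost its call by DESeq2, without hairpin 1 IgG (1.16, adjusted p = 0.275), with the top 5% (0.86) and when members were ranked without Mgp (0.61, adjusted p = 0.0929, edgeR).

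For knockdown, 18 genes passed (0.125%), 8 with a more positive difference in knockdown (0.0556%) and 10 with a more negative one (0.0695%), and DESeq2 called 0. Leaving out a hairpin 1 library gave 8 genes (IgG) or 32 (anti-PD1), and leaving out a hairpin 2 library gave 78 (IgG) or 43 (anti-PD1). Ctsk, the collagen-degrading cathepsin K, was at 7.3, 13.4, 469.7, 229, 20.7 and 36 CPM in members and 9.12, 9.91, 11.5, 16.1, 9.43 and 9.69 CPM in others (3.23 ± 0.56, adjusted p = 0.00148, edgeR). The high values were those of hairpin 1, and the call was lost without hairpin 1 IgG (2.21, adjusted p = 0.218). C3 was at 31.3, 49.5, 5.7, 1.57, 10.7 and 4.97 CPM in members and 44.4, 45.8, 15.2, 26.3, 42.7 and 74.4 CPM in others (-2.49 ± 0.41, adjusted p = 0.00107, edgeR). Control members lay above all knockdown members, and the call was lost without control anti-PD1 (-1.36). Hmox1, heme oxygenase 1, was at 34.4, 19.6, 64.6, 39.2, 8.45 and 18.6 CPM in members and 176, 159.9, 62.7, 72.4, 39.8 and 59.4 CPM in others (1.65 ± 0.34). Members were below others in all libraries except hairpin 1 IgG, by the most in the control libraries, and the call was lost without hairpin 1 IgG and without either control library. These tests treat the 4 knockdown and 2 control libraries as independent, although they come from 2 knockdown lines and 1 control line and libraries of a line deviated together, so their p-values do not carry the spread between lines.

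Members made up 2.05% of tumour cells in control IgG (85 of 4138), 1.95% in control anti-PD1 (83 of 4264), 1.63% in hairpin 1 IgG (42 of 2584), 2.37% in hairpin 1 anti-PD1 (66 of 2789), 2.86% in hairpin 2 IgG (118 of 4124) and 1.20% in hairpin 2 anti-PD1 (54 of 4491). Exact binomial 95% intervals of the lowest and the highest were 0.905 to 1.57% and 2.37 to 3.42%, and cover counting error only. Anti-PD1 minus IgG was -0.108 percentage points in the control line, 0.741 in hairpin 1 and -1.66 in hairpin 2, a mean of -0.342 (exact paired permutation test over 3 lines, two-sided p = 0.75, smallest possible 0.25). Knockdown minus control was 0.0136 points (exact permutation test, 4 against 2 libraries, two-sided p = 1, smallest possible 0.0667). No difference beyond the spread between libraries was found, and neither test could reach 0.05.

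**Figure D5:**
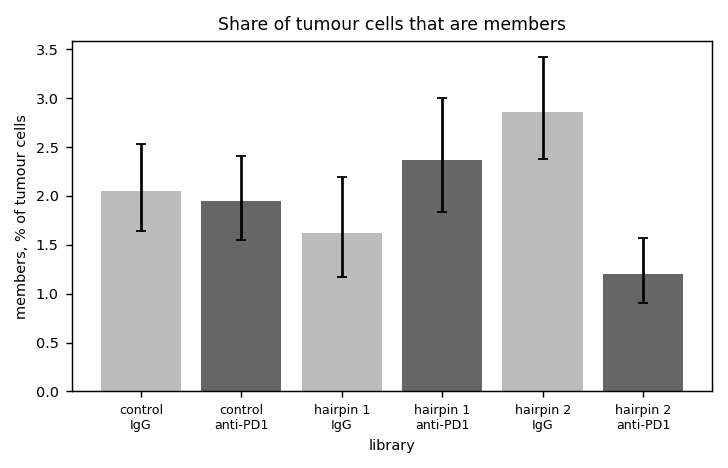
Members as a percentage of tumour cells in each library, with exact binomial 95% intervals (counting error only). The share is higher with anti-PD1 in hairpin 1 (2.37% against 1.63%) and lower in hairpin 2 (1.20% against 2.86%).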

How the data were processed

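Single-cell RNA was sequenced from 6 tumour libraries. The deposited matrices hold raw UMI counts per gene and barcode from Cell Ranger 7.0.1 on mm10, per the file headers and the submitters' processing notes. Members and gene lists were chosen with earlier results of these data known. UMI counts were summed per library and kind of cell and tested with edgeR 4.0.16 (quasi-likelihood, TMM, filterByExpr, Benjamini-Hochberg, adjusted p under 0.05), with DESeq2 1.42.0 as an alternative. Adjusted p-values are over all genes tested. The library was a block between members and other cells. Named genes were those called, at 20 CPM or more in the higher arm and of 1 direction in 6 libraries: the 20 largest increases and 12 largest decreases; for other comparisons, 5 each way. Genes from the lists were examples among those called, and Mmp2 was chosen after its values were seen. Doublets were marked with Scrublet in scanpy 1.11.5 (expected rate 0.06). The model was run on simulated counts drawn with no difference between lines, so that run does not cover libraries of a line that deviate together. Shares were tested by exact permutation. Libraries of the same line deviated together (correlations 0.226, 0.502 and 0.332 over 8572 genes), so line pairs the antibody groups. Gene positions come from GENCODE M21. Alternatives were other thresholds, filters, depth matching and leaving out libraries.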

Additional observations from a re-analysis of the deposited data

Results flagged for a closer look

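The share of members moved in opposite directions with anti-PD1 in the knockdown lines: 0.741 percentage points up in hairpin 1 and -1.66 in hairpin 2. With 1 library each, this difference was not tested.

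The log2 difference of members from other cells differed between anti-PD1 and IgG for Stc1 (1.24). Compared with control, it was more positive in knockdown for Ctsk (3.23), Sparcl1 (3.17), Hmox1 (1.65), Ero1l (1.15) and Anxa8 (1.04), and more negative for C3 (-2.49), Penk (-1.47), Enpp2 (-1.46), Gm8773 (-1.36) and Tmem176a (-1.31), by edgeR's test of the difference. A more positive value is not a wider gap: Hmox1 was lower in control members than in their other cells, and less so in knockdown. For Sparcl1 the high members were those of hairpin 1, at 6.26, 3.09, 685, 783, 2.3 and 3.73 CPM in the order control, hairpin 1 and hairpin 2, IgG before anti-PD1. Compared with the other lines, the difference in hairpin 1 was more positive for Eln (6.01), Iigp1 (5.52), Mest (5.02), Sparcl1 (4.81) and H19 (4.03), and more negative for Nrg1 (-4.06), Kif20a (-3.15), Tk1 (-2.93), Mki67 (-2.86) and Knstrn (-2.52). Several rest on few cells: 1 member held 54.5% of the members' Iigp1 UMIs and 1 held 57.6% of their Nrg1 UMIs.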

How the results depend on the processing

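The number of genes called between members and other cells was 1793, and 1093 to 1861 when 1 library was left out (1093 without control IgG). It was 1061 with the top 1%, 801 with depth-matched cells and 1060 with no replicate block. When members were ranked without Mgp, 3 of 1017 shared calls changed direction, and under the other alternatives run 0 did. Ranking without Mgp, removing members with Y-linked UMIs, leaving out hairpin 1 and the comparison of hairpin 1 with the other lines were chosen after seeing the data. For the genes named between members and other cells, 594 values under alternatives kept their call and 14 lost it. These genes were picked as called and of 1 direction in 6 libraries, and many alternatives reused most of the same cells, which favours keeping a call. Ranking without Mgp, which kept 38.4% of the members, lost the call of 6 named genes and kept that of 26. Of all 1793 calls 56.7% recurred there. The calls were less stable for the genes named in the interactions, with 107 kept and 53 lost for knockdown, 133 kept and 27 lost for hairpin 1, and 12 kept and 4 lost for Stc1. With no filter on low counts, 8 genes passed for anti-PD1 within members and 128 for knockdown, where DESeq2 gave 2. For the anti-PD1 interaction (1 gene), DESeq2 and the top 5% gave 0, no filter 7, the top 1% 8, the top 2% within each library 6, at least 6000 UMIs 10, at least 3 of the genes 14, doublets removed 5, ranking without Mgp 24, Y-linked UMIs removed 9, and leaving out 1 library 0 to 60. For the knockdown interaction (18 genes), DESeq2 gave 0, no filter 29, the top 5% 3, at least 3 of the genes 41, ranking without Mgp 184, Y-linked UMIs removed 31, and leaving out 1 library 8 to 78 (8 without hairpin 1 IgG, 78 without hairpin 2 IgG). For hairpin 1 against the other lines (510 genes), DESeq2 gave 175, ranking without Mgp 239, and leaving out 1 library 173 to 614 (173 without hairpin 1 IgG, 202 without hairpin 1 anti-PD1, 326 without hairpin 2 IgG). The knockdown difference in share changed sign with the top 1% (-0.0338 points), the top 5% (-0.0522), at least 6000 UMIs (-0.116), ranking without Mgp (-0.267) and Y-linked UMIs removed (-0.000709), and spanned -0.269 to 0.284 when 1 library was left out. The anti-PD1 difference in share was 0.123 when ranked without Mgp, and -0.883 to 0.317 when 1 line was left out (0.317 without hairpin 2), with no replicate block p = 0.5 for the same -0.342 (exact permutation). A wider choice at equal depth, at least 3 UMIs of 2 rule genes at 3000 UMIs a cell, took in 20.0 to 31.4% of tumour cells. There the knockdown difference in share was 2.41 points and the anti-PD1 difference -1.89 points. Over all tumour cells the summed level of the 7 genes differed by -39.0 CPM with anti-PD1, 7.82 without Mgp and -65.1 to -12.8 when 1 line was left out. With knockdown it differed by -43.9 CPM, and -107 to 10.4 when 1 library was left out. The causes were not tested. Members' sums held 525917 to 1302449 UMIs a library, which limits genes of low level.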
